A study of Rattus norvegicus with 16 samples.

Results

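Expression of the matrix metalloproteases (Mmp genes), of the ADAMTS proteases (Adamts genes) and of the tissue inhibitors of metalloproteases (Timp genes) was measured in rat ovary. Members were taken by a rule on names, as every gene on the array called Adamts or Mmp with a number, or Timp with a digit. The rule was set with earlier results of these data known. This gave 45 genes on 70 probes, with 19 ADAMTS, 22 MMP and 4 TIMP genes. Of these, 36 had a probe that passed the filter on dim signals, among 20227 features that passed it on the whole array. To pass, a probe had to be called well above background by the scanner software on 3 or more arrays of some group of 4.

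Each array held 1 ovary sample of a Jcl:SD rat (Sprague-Dawley), all female, and the 16 samples formed 4 groups of 4. Wild-type rats had received vehicle or olaparib, an inhibitor of the poly(ADP-ribose) polymerases that act in DNA repair, and so had BRCA1+/- rats, which keep 1 intact copy of a gene of homologous recombination repair. Olaparib was injected under the skin once a day at 50 mg/kg for 14 days, starting at an age of 3 weeks, and tissue was collected 24 h after the final dose. The labels describe these injections for olaparib alone, so the age, the injections and the sampling time of the vehicle animals, and the make-up of the vehicle, are not given in the sources used here. How the BRCA1 allele was lost, and whether the loss was in all cells, is also not given there.

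Matrix metalloproteases are zinc enzymes that cut collagens, basement membrane proteins and other parts of the extracellular matrix. They are made as inactive precursors, opened by other proteases such as plasmin and by membrane-bound members of their own family, and blocked by the tissue inhibitors. ADAMTS proteases carry thrombospondin motifs that hold them in the matrix, where some trim procollagen and others cut proteoglycans such as versican. In the ovary these enzymes are known for follicle growth, for the rupture of the follicle wall at ovulation, in which Adamts1 takes part, and for remodelling of the corpus luteum.

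A run of 9 members lies in 1 cluster, and the same 7-base motif was found just upstream of 6 of them: the AP-1 site TGAGTCA, the textbook binding site of Fos and Jun proteins in collagenase and stromelysin promoters. By the array's own annotation (build rn4) the probes of Mmp13, Mmp12, Mmp3, Mmp1, Mmp10, Mmp8, Mmp27, Mmp20 and Mmp7 lie on chromosome 8 between 4168554 and 4533706, a span of 365 kb. A table of RefSeq promoters (build GRCr8) held 34 of the 45 members. The motif was searched on both strands, as TGAGTCA or its reverse complement TGACTCA, in the 250 bases before each gene's start. It was present in 6 of the 34 (17.6%), against 1354 of 33469 promoters in the whole table (4.05%). Each member was counted with 1 promoter, while the whole table was counted by entry. All 6 are genes of the cluster, so they are not independent cases, and 0 of the 25 other members in the table had it. Its first base lay 61 to 87 bases before the start. The last 100 bases before the start are printed for the 5 cluster genes that were tested and, for contrast, for Mmp8, which lacks the motif, with the motif in capitals. A match in letters is a description and shows no binding.
Mmp13, GRCr8 chr8:12782729-12782828: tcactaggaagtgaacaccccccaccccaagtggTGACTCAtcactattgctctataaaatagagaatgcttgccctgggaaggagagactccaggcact
Mmp12, GRCr8 chr8:12866552-12866651: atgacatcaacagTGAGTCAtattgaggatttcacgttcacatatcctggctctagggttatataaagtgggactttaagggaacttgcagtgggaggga
Mmp3, GRCr8 chr8:12925181-12925280: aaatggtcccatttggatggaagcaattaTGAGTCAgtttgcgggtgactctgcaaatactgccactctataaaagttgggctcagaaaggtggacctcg
Mmp10, GRCr8 chr8:12974607-12974706: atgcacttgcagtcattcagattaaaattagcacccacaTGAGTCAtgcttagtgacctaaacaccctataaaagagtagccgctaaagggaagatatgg
Mmp7, GRCr8 chr8:13132943-13133042: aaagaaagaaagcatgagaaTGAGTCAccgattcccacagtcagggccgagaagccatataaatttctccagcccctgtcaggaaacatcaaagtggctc
Mmp8, GRCr8 chr8:13008790-13008889: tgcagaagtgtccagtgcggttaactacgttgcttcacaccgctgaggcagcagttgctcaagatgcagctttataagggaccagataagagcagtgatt

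The values are log2 signals: the log2 of the spot signal with each array's 75th percentile subtracted, so that 0 stands for a signal at that percentile. They are compared between arrays for 1 gene and never between genes, since probes differ in brightness. That percentile lay between 202 and 566 intensity units over the arrays, 55.5% to 60.7% of probes were well above background, and 0 spots were saturated. Slide 1 held replicates 1 and 2 of each group and slide 2 replicates 3 and 4. Brca1 itself had a difference between BRCA1+/- and wild-type ovaries with vehicle of -0.67 (SE 0.27, n = 4 and 4), with a limma p adjusted over all features of 0.862. Of the fixed marker lists, all 6 granulosa and all 4 theca markers were detected, as were the 6 oocyte markers. Markers of ciliated oviduct epithelium (6 of 7 tested) had summed log2 levels of 1.17 to 2.82 in the wild-type vehicle group, 1.90 to 7.22 in the wild-type olaparib group, 1.46 to 7.57 in the BRCA1+/- vehicle group and 1.24 to 6.54 in the BRCA1+/- olaparib group. No wild-type vehicle array was among the 6 arrays with a mean centred level of these markers above 0. These were wild-type olaparib replicates 1 and 3 and replicates 3 and 4 of both BRCA1+/- groups, and differences that turn sign or move by over 1.5 times without them are given both ways. Without them 2 arrays are left in each group but the wild-type vehicle group, and in both BRCA1+/- groups these are the arrays of slide 1. The ovary is a mixture of cells, so fewer cells of a type and less RNA per cell cannot be told apart.

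Most members were expressed. 29 of the 45 were well above background on all 16 arrays, and 7 were so on none: Adamts8, Adamts16, Adamts20, Mmp1, Mmp20, Mmp21 and Mmp27. Mmp20 is the tooth enamel protease and Mmp1 a collagenase. Mmp8, the neutrophil collagenase, reached it on 1 array and Mmp28 on 7, and these 9 genes were not tested. In between stood Adamts18 (9 arrays), Mmp10 (11), Mmp9 (12), Adamts3 and Mmp7 (14 each) and Mmp3 and Mmp13 (15 each). Of the 36 tested members, 16 were ADAMTS genes, 16 MMP genes and all 4 the inhibitors. Among members above background on all 16 arrays the steadiest was Mmp23, with a range of 0.82 log2 units over the arrays, and the widest was Adamts14, with 6.33. Across all tested members Mmp7 spanned 11.66 log2 units and Mmp13 10.17.

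**Figure D1:**
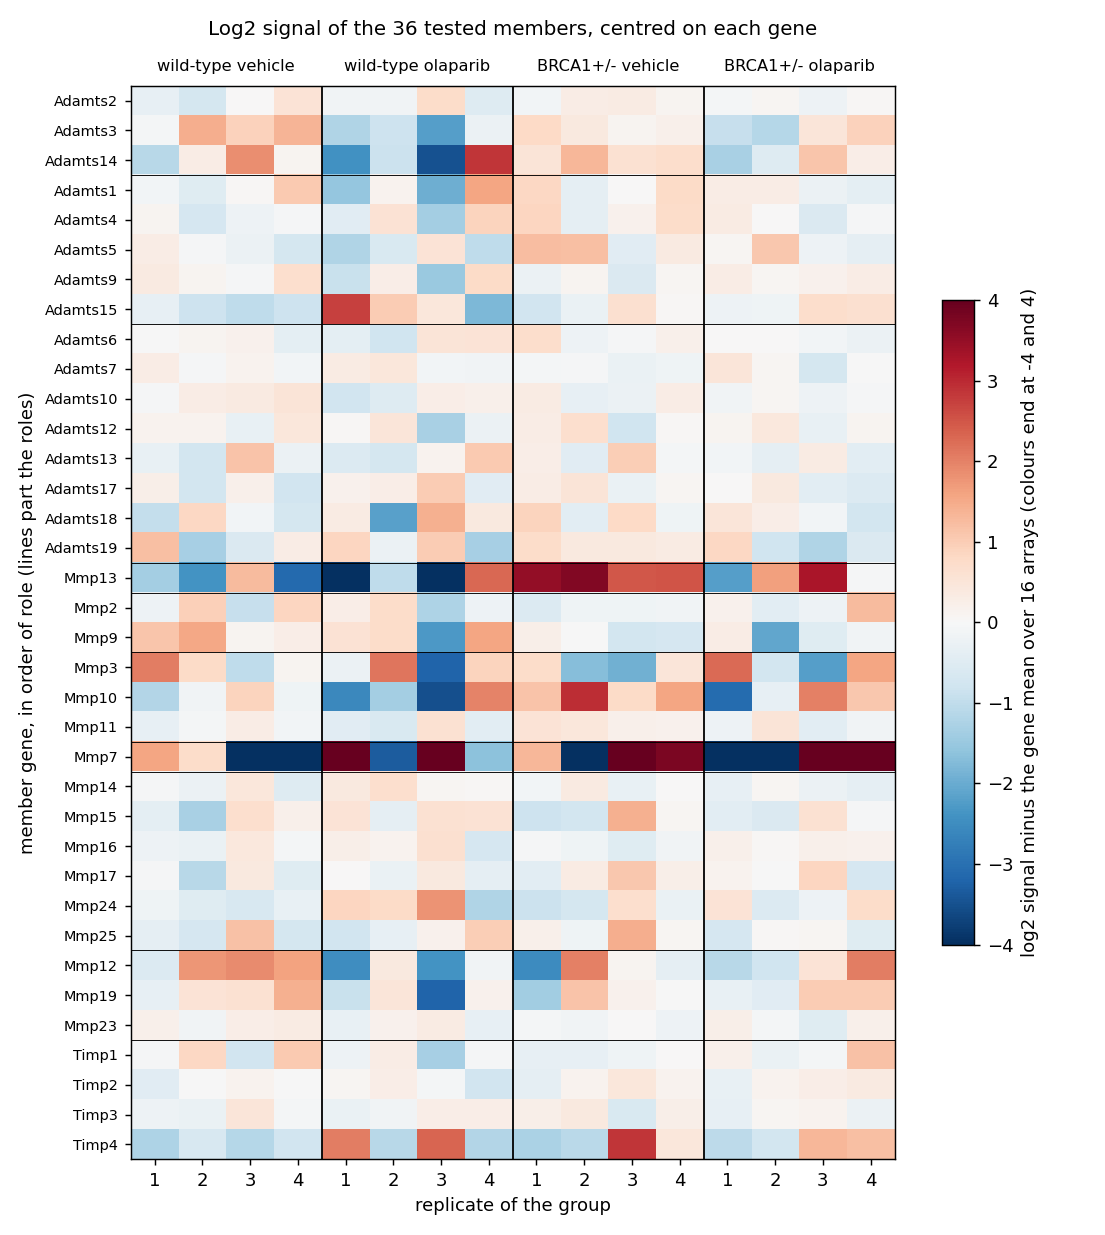
Each row is 1 of the 36 tested members in order of role and each column 1 of the 16 arrays. Colour gives the log2 signal minus the gene's mean over the arrays and ends at -4 and 4; the rows of Mmp13 and Mmp7 are the most strongly coloured, and most rows, such as Mmp23 and Timp2, stay pale in every group.

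No member passed the test in any of the 6 comparisons. With limma and Benjamini-Hochberg adjustment over all 20227 features, 0 of 36 members had an adjusted p under 0.05 for olaparib against vehicle in wild-type rats, in BRCA1+/- rats or over both genotypes, for BRCA1+/- against wild-type with vehicle or with olaparib, or for the interaction. The share of all features that passed was 0% in each comparison. The differences below are therefore values with their errors, and the smallest unadjusted p-values are given to show where the members stood. In wild-type rats 2 members (5.56%) had an unadjusted p under 0.05 for olaparib, beside 4.33% of all features. In BRCA1+/- rats 0 members did (1.17% of all features), and over both genotypes 1 did (2.78%, beside 1.32%). For the genotype, 1 member did with vehicle (2.78%, beside 5.5%) and 1 with olaparib (2.78%, beside 0.915%), and for the interaction 0 did (3.44%). These shares are of the order of those of the whole array, with 1 or 2 genes in each. The comparisons share groups: the wild-type vehicle arrays enter both the olaparib and the genotype comparison. The limma p-values rest on the spread between animals within groups, pooled for each gene over all 4 groups. A group of wide spread thus also enters the comparisons it is not part of.

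**Figure D2:**
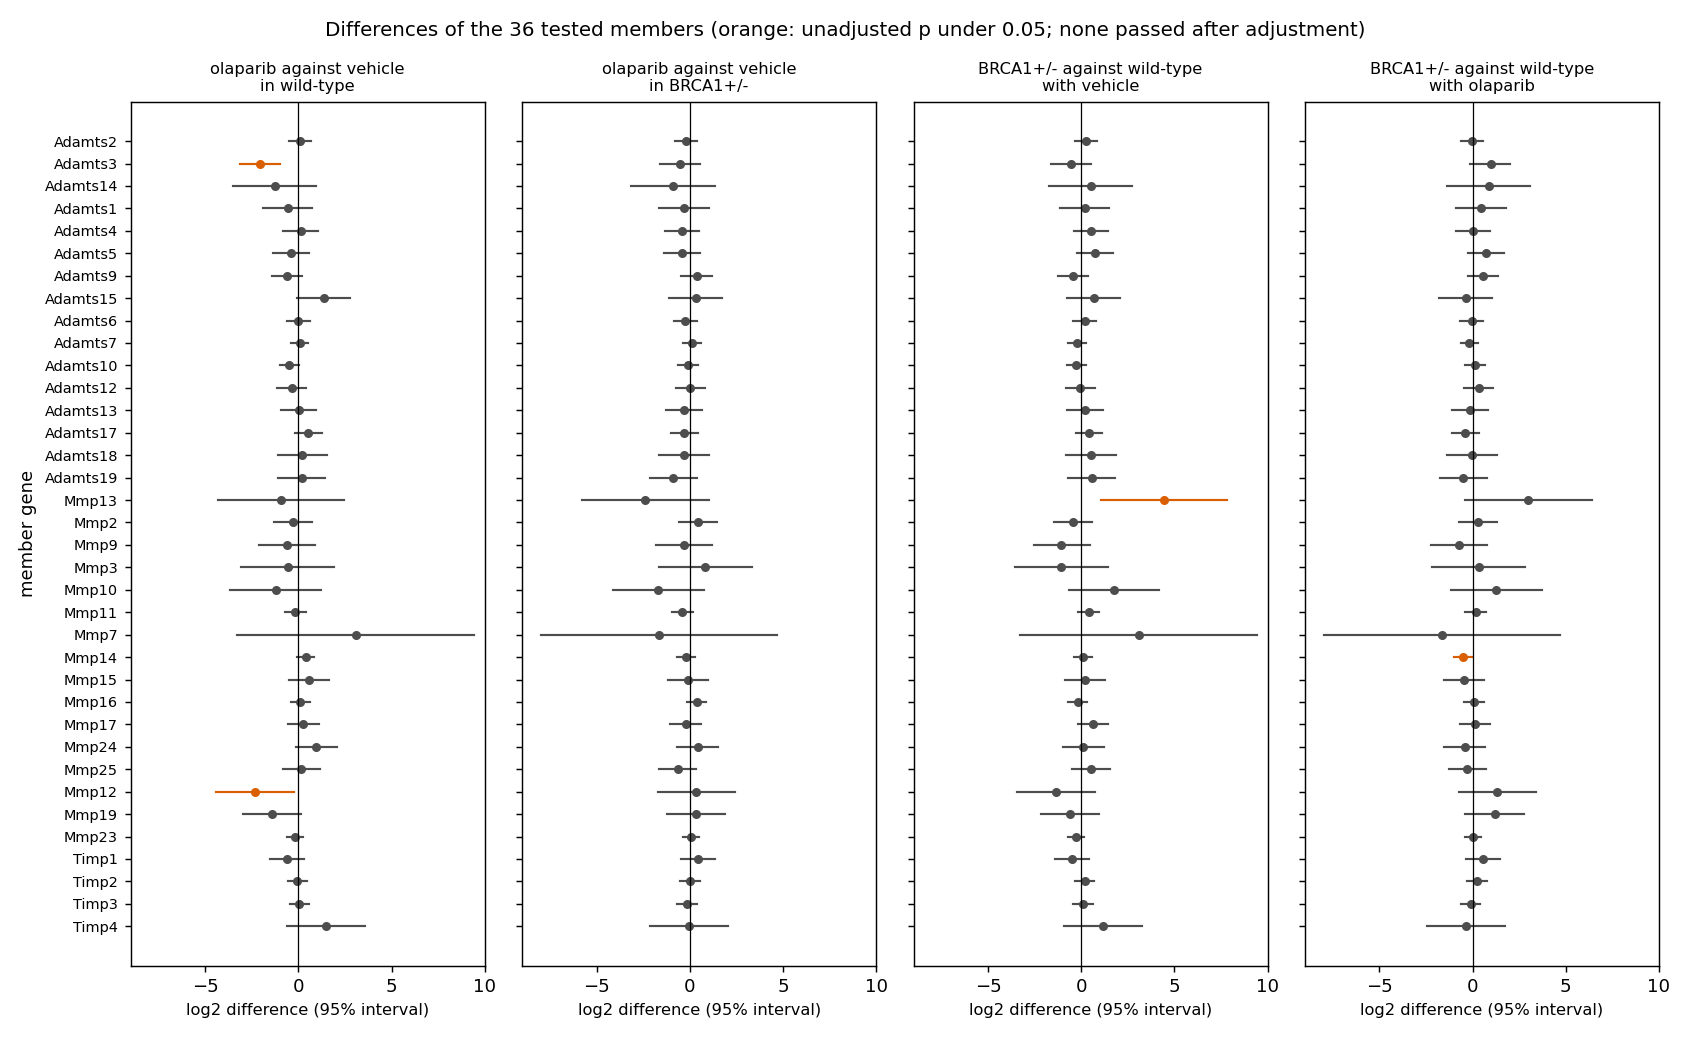
Each panel is 1 comparison and each row 1 tested member; the point is the log2 difference between group means (n = 4 and 4) and the line its 95% limma interval. Orange marks an unadjusted p under 0.05, which Adamts3 and Mmp12, Mmp13 and Mmp14 reached in 1 panel each; the second panel has none, and Mmp7 has the widest intervals.

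The procollagen N-propeptidases Adamts2, Adamts3 and Adamts14 remove the amino-terminal propeptide of fibrillar procollagens, and Adamts3 had the smallest unadjusted p of all members. Its probe lies on chromosome 14 at 19963291 to 19963350 (rn4). The log2 signals of Adamts3 were -4.14, -2.61, -3.16 and -2.70 in the wild-type vehicle ovaries, -5.28, -4.91, -6.27 and -4.30 in the wild-type olaparib ovaries, -3.26, -3.68, -3.96 and -3.87 in the BRCA1+/- vehicle ovaries and -4.99, -5.21, -3.58 and -3.15 in the BRCA1+/- olaparib ovaries. All 4 wild-type olaparib ovaries lay below all 4 wild-type vehicle ovaries, and the BRCA1+/- groups overlapped. Groups that do not overlap were found for 1 of 36 members in this comparison (2.78%), beside 1.16% of all features.

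In wild-type rats the Adamts3 difference was -2.04 (SE 0.50, 95% interval -3.11 to -0.97), with an unadjusted limma p of 0.0011 and an adjusted p of 0.964. The two-sided exact permutation p was 0.0286, the smallest that 4 against 4 arrays can give. Within slide 1 the difference was -1.72 and within slide 2 it was -2.36. Over both genotypes it was -1.29 (SE 0.35), unadjusted p 0.00261, adjusted limma p 1. It was -0.54 (SE 0.50) in BRCA1+/- rats, with -1.62 on slide 1, which is also the value without the 6 arrays of high ciliated markers, and 0.55 on slide 2. The interaction, the BRCA1+/- difference minus the wild-type one, was 1.50 (interval -0.02 to 3.02), and -0.17 without those 6 arrays, so the test did not show that the olaparib differences of the genotypes differ.

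The Adamts3 signal was dim. Only 2 of the 4 wild-type olaparib arrays were well above background, against 4 of 4 in each other group, so the size of the difference rests on signals near background. With normexp background correction in place of the scanner's subtraction the wild-type difference was -0.62, and the gene's second probe, above background on 11 arrays, gave -0.81. That second probe gave 0.17 in BRCA1+/- rats. Without the 6 arrays the wild-type difference was -1.46.

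Adamts14 had the largest range among members above background on every array. Adamts14 log2 signals were 1.14, 2.57, 4.11 and 2.38 in the wild-type vehicle ovaries, -0.15, 1.40, -1.23 and 5.11 in the wild-type olaparib ovaries, 2.78, 3.59, 2.87 and 2.96 in the BRCA1+/- vehicle ovaries and 0.95, 1.75, 3.37 and 2.53 in the BRCA1+/- olaparib ovaries. The highest and the lowest value of the whole series both lay in the wild-type olaparib group, with replicate 4 high and replicates 1 and 3 low. Its difference there was -1.26 (SE 1.04, adjusted limma p 0.972), and 0.71 without the 6 arrays of high ciliated markers, which include those low replicates. In BRCA1+/- rats the olaparib difference was -0.90 (SE 1.04), and -1.83 without those 6 arrays, and the genotype difference with vehicle was 0.50 (SE 1.04). Adamts2, the third enzyme of the group, had a range of 1.44 over the 16 arrays. Over both genotypes all 3 had a negative olaparib difference, with a median of -1.08 beside -0.02 for all features. Of the 3, only Adamts3 had an unadjusted p under 0.05, beside 1.32% of all features. Over the 27 alternative settings 0 or 1 of them was higher, with medians of -1.44 to -0.42.

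The proteoglycanases cut versican and aggrecan, and 5 of 7 were tested. Adamts1, the versican-cutting enzyme of the ovulating follicle, had log2 signals of 4.11, 3.75, 4.27 and 5.29 in the wild-type vehicle ovaries, 2.69, 4.37, 2.27 and 5.82 in the wild-type olaparib ovaries, 5.06, 3.87, 4.25 and 4.99 in the BRCA1+/- vehicle ovaries and 4.54, 4.54, 4.00 and 3.84 in the BRCA1+/- olaparib ovaries. The wild-type olaparib group spread the most, with replicates 1 and 3 below all other arrays and replicate 4 above all others. Its olaparib difference in wild-type rats was -0.57 (SE 0.62, adjusted limma p 0.983), and 0.74 without the 6 arrays.

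Adamts9, which also cuts versican, had log2 signals of 1.90, 1.66, 1.49 and 2.23 in the wild-type vehicle ovaries, 0.64, 1.80, 0.07 and 2.32 in the wild-type olaparib ovaries, 1.31, 1.64, 0.98 and 1.62 in the BRCA1+/- vehicle ovaries and 1.85, 1.61, 1.72 and 1.85 in the BRCA1+/- olaparib ovaries. Here too replicates 1 and 3 of the wild-type olaparib group were the lowest arrays, and all groups overlapped. Its olaparib difference in wild-type rats was -0.61 (SE 0.38), or 0.24 without the 6 arrays, and its interaction was 0.98 (SE 0.54, adjusted limma p 0.968), or 0.01 without them.

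Adamts4, an aggrecanase, had log2 signals of 0.29, -0.48, -0.03 and 0.15 in the wild-type vehicle ovaries, -0.26, 0.76, -1.19 and 1.09 in the wild-type olaparib ovaries, 1.03, -0.18, 0.35 and 0.93 in the BRCA1+/- vehicle ovaries and 0.52, 0.21, -0.38 and 0.15 in the BRCA1+/- olaparib ovaries. The groups overlapped, and the wild-type olaparib group held both the lowest and the highest value. The genotype difference with vehicle was 0.55 (SE 0.43, adjusted limma p 0.867).

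Adamts15, a versicanase, showed the opposite spread. Its log2 signals were -0.70, -1.20, -1.39 and -1.20 in the wild-type vehicle ovaries, 2.36, 0.65, 0.09 and -2.15 in the wild-type olaparib ovaries, -1.13, -0.64, 0.29 and -0.31 in the BRCA1+/- vehicle ovaries and -0.57, -0.53, 0.34 and 0.27 in the BRCA1+/- olaparib ovaries. Wild-type olaparib replicates 1, 2 and 3 lay above all wild-type vehicle arrays and replicate 4 lay below them. The difference was 1.36 (SE 0.67, adjusted limma p 0.964), and 0.37 without the 6 arrays. The summed log2 level of the 6 surface epithelium and mesothelium markers was 2.33 to 4.86 with vehicle and 2.70 to 7.34 with olaparib in wild-type rats. Their mean centred level was 2.33, 0.87, 1.39 and -2.37 in wild-type olaparib replicates 1 to 4, the first 3 above all wild-type vehicle arrays and the last below them, as for Adamts15. For the adipocyte markers (4 of 6 tested) it was 4.50, 2.73, 1.36 and -2.70, against -2.81 to -0.08 with vehicle, and the summed level was -0.76 to 1.13 with vehicle and -2.36 to 5.25 with olaparib. Single markers did not all follow these means. In replicate 3 with olaparib, Msln (2.87) and Upk3b (-2.19) lay below wild-type vehicle replicates 1 and 4. Upk1b, Krt8, Krt18 and Wt1 lay above all wild-type vehicle arrays there. Of the adipocyte markers, Fabp4 (-1.55) lay below all wild-type vehicle arrays in that replicate, while Adipoq, Lep and Thrsp lay above them. The part of these cells in the Adamts15 values was not tested. Among the 5 tested proteoglycanases, 2 had a positive and 3 a negative olaparib difference in wild-type rats (median -0.39, beside -0.07 for all features). Over the 28 alternative settings 1 to 4 of the 5 were higher and the median turned sign, from -0.46 to 0.37. With vehicle, 4 of 5 were higher in BRCA1+/- than in wild-type ovaries, with a median of 0.55 beside -0.06. Of the 5, 0 had an unadjusted p under 0.05, beside 5.5% of all features.

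The other ADAMTS genes hold Adamts10 and Adamts17, linked to fibrillin microfibrils, Adamts13, which cuts von Willebrand factor, Adamts7 and Adamts12, which cut cartilage oligomeric matrix protein, and Adamts6, Adamts18 and Adamts19. None of the 8 tested had an unadjusted p under 0.05 in any comparison, beside 0.915% to 5.5% of all features by comparison. Their median olaparib difference was 0.03 in wild-type rats (5 higher, 3 lower) and -0.27 in BRCA1+/- rats (2 higher, 6 lower), beside -0.07 and 0.02 for all features. The wild-type median turned sign over the alternative settings, from -0.10 to 0.25. Adamts7 and Adamts10 had ranges of 1.17 and 1.28 log2 units over the 16 arrays, Adamts19 of 2.54, and Adamts18, above background on 9 arrays, of 3.60.

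Among the collagenases only Mmp13 was tested, the enzyme that cleaves fibrillar collagen in rodents and the first gene of the cluster whose promoters are printed above. It had the largest genotype difference with vehicle of all members. The Mmp13 log2 signals were -0.79, -1.82, 1.83 and -2.56 in the wild-type vehicle ovaries, -3.52, -0.47, -5.93 and 2.86 in the wild-type olaparib ovaries, 4.08, 4.25, 3.05 and 3.06 in the BRCA1+/- vehicle ovaries and -1.65, 2.21, 3.81 and 0.52 in the BRCA1+/- olaparib ovaries. All 4 BRCA1+/- vehicle ovaries lay above all 4 wild-type vehicle ovaries, while the other groups spread widely and overlapped. In this comparison 1 of 36 members had groups that did not overlap (2.78%), beside 3.44% of all features.

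With vehicle the Mmp13 difference between BRCA1+/- and wild-type was 4.44 (SE 1.59, 95% interval 1.05 to 7.83), a 21.7-fold higher signal in BRCA1+/- ovaries. The unadjusted limma p was 0.0138, the adjusted p 0.862 and the two-sided exact permutation p 0.0286. The difference was 5.46 on slide 1, 3.42 on slide 2, and 5.0 without the 6 arrays of high ciliated markers. With olaparib the genotype difference was 2.99 (SE 1.59, adjusted p 1), and -0.92 without those arrays. In BRCA1+/- rats the olaparib difference was -2.39 (SE 1.59, interval -5.78 to 1.01, adjusted p 1), and -3.88 without those arrays. Wild-type olaparib replicate 3, at -5.93, was the only array on which Mmp13 was not well above background.

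**Figure D3:**
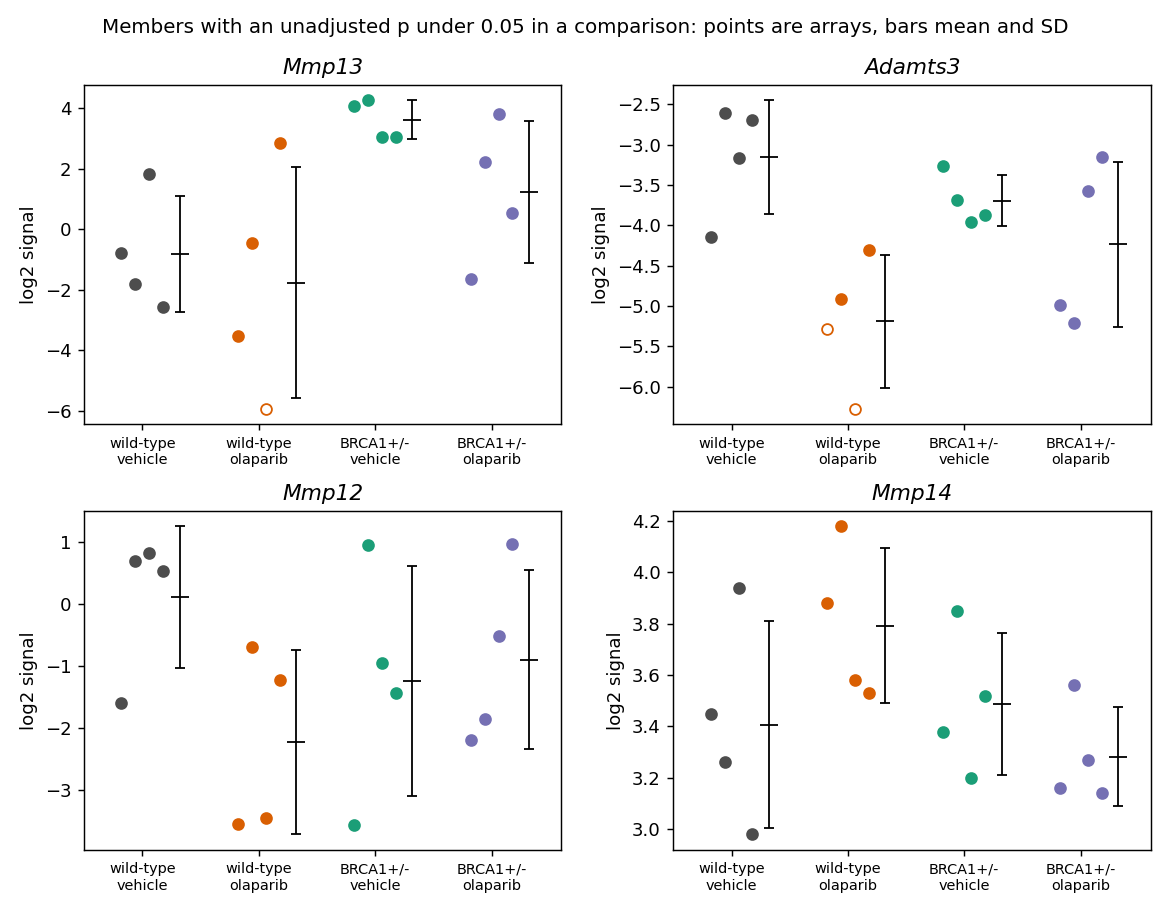
Log2 signal (vertical axis) by group for Mmp13, Adamts3, Mmp12 and Mmp14; points are arrays, open where the probe was not well above background, and bars give the mean and SD (n = 4). BRCA1+/- vehicle ovaries sit between 3.05 and 4.25 for Mmp13, above all wild-type vehicle ovaries, and wild-type olaparib ovaries sit between -6.27 and -4.30 for Adamts3, below all wild-type vehicle ovaries.

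The gelatinases Mmp2 and Mmp9 cut denatured collagen and collagen IV of basement membranes. Mmp2 had log2 signals of 2.78, 3.95, 2.08 and 3.87 in the wild-type vehicle ovaries, 3.27, 3.74, 1.77 and 2.80 in the wild-type olaparib ovaries, 2.44, 2.82, 2.83 and 2.85 in the BRCA1+/- vehicle ovaries and 3.16, 2.57, 2.79 and 4.25 in the BRCA1+/- olaparib ovaries. Wild-type vehicle replicates 2 and 4 and BRCA1+/- olaparib replicate 4 were the highest arrays, wild-type olaparib replicate 3 was the lowest, and all groups overlapped. Its olaparib difference in wild-type rats was -0.28 (SE 0.48, adjusted limma p 0.986), and 0.10 without the 6 arrays.

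Mmp9, the gelatinase of neutrophils and macrophages, was above background on 12 arrays. Log2 signals of Mmp9 were -3.99, -3.54, -4.98 and -4.83 in the wild-type vehicle ovaries, -4.52, -4.37, -7.40 and -3.51 in the wild-type olaparib ovaries, -4.86, -5.10, -5.82 and -5.77 in the BRCA1+/- vehicle ovaries and -4.81, -7.16, -5.58 and -5.22 in the BRCA1+/- olaparib ovaries. With vehicle, 3 of 4 BRCA1+/- ovaries lay below all wild-type ovaries, and replicate 1 overlapped them. The genotype difference with vehicle was -1.06 (SE 0.70, adjusted limma p 0.862), and -0.65 without the 6 arrays. Both gelatinases had a negative genotype difference with vehicle, with a median of -0.75. Of the 2, 0 had an unadjusted p under 0.05, beside 5.5% of all features.

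The stromelysins Mmp3 and Mmp10, which activate other MMPs and cut proteoglycans and fibronectin, lie in the cluster with Mmp13, and Mmp11 does not. Mmp10 is named outside the rule for named genes, because its promoter is shown and its values were seen. Mmp10 log2 signals were -5.46, -4.44, -3.41 and -4.45 in the wild-type vehicle ovaries, -6.87, -5.64, -7.81 and -2.31 in the wild-type olaparib ovaries, -3.16, -1.34, -3.52 and -2.70 in the BRCA1+/- vehicle ovaries and -7.38, -4.62, -2.28 and -3.22 in the BRCA1+/- olaparib ovaries. In the vehicle groups 3 of 4 BRCA1+/- ovaries lay above all wild-type ovaries, with a difference of 1.76 (SE 1.14, adjusted limma p 0.862, exact permutation p 0.0571). Mmp10 was above background on 11 of 16 arrays, and wild-type olaparib replicate 3 gave the lowest value, as it did for Mmp13 and Mmp3. Among tested members that array was also the lowest for Adamts1, Adamts3, Adamts4, Adamts9, Adamts12, Adamts14, Mmp2, Mmp9, Mmp19 and Timp1. It was the highest for Adamts2, Adamts17, Adamts18, Mmp11, Mmp16 and Mmp24. Star, a theca marker, was at 0.51 there and at 5.36 or above on all other arrays. This array is 1 of the 6 of high ciliated markers, so leaving those out also leaves it out. The cause of its values was not tested. Mmp3 had log2 signals of -0.71, -1.99, -3.77 and -2.63 in the wild-type vehicle ovaries, -3.00, -0.61, -5.94 and -1.86 in the wild-type olaparib ovaries, -2.03, -4.46, -4.66 and -2.26 in the BRCA1+/- vehicle ovaries and -0.50, -3.47, -4.97 and -1.16 in the BRCA1+/- olaparib ovaries. Its groups overlapped, and its BRCA1+/- vehicle values were not the high ones, unlike those of Mmp13 and Mmp10. None of the 3 stromelysins had an unadjusted p under 0.05 in any comparison, beside 0.915% to 5.5% of all features by comparison.

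Mmp7 (matrilysin), the protease of glandular epithelia, lies at the other end of the cluster and varied more between animals than any other tested member. It is named for that range, outside the rule for named genes. Its log2 signals were 1.31, 0.45, -5.17 and -5.29 in the wild-type vehicle ovaries, 5.23, -3.60, 3.88 and -1.93 in the wild-type olaparib ovaries, 1.04, -5.42, 4.53 and 3.48 in the BRCA1+/- vehicle ovaries and -6.44, -5.01, 3.70 and 4.74 in the BRCA1+/- olaparib ovaries. The 6 arrays with high ciliated markers were also the 6 highest for Mmp7, at 3.48 to 5.23, and no other array exceeded 1.31. The olaparib difference in wild-type rats was 3.07 (SE 2.97, adjusted limma p 0.977), with -0.07 on slide 1 and 6.21 on slide 2, and it was -0.59 without the 6 arrays. The genotype difference with vehicle was 3.08 (SE 2.97, adjusted p 0.898), with -3.07 on slide 1 and 9.23 on slide 2, and it was -0.01 without the 6 arrays. Markers of secretory oviduct epithelium (3 of 4 tested) had a mean centred level above 0 on the same 6 arrays, at 0.64 to 2.85, and below 0 on the other 10. Their summed log2 level was 0.05 to 2.14 in the wild-type vehicle group, 1.41 to 4.82 in the wild-type olaparib group, 2.59 to 4.37 in the BRCA1+/- vehicle group and 1.90 to 4.09 in the BRCA1+/- olaparib group. By this level the 6 arrays were not the highest. Replicate 2 of the BRCA1+/- vehicle and olaparib groups (3.31 and 3.21) exceeded replicate 4 of the same groups (3.19 and 2.83). The part of ciliated and of secretory epithelium in the Mmp7 values was not tested.

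The membrane-type MMPs are held at the cell surface, and Mmp14 among them activates Mmp2 together with Timp2. Its probe lies on chromosome 15 at 32503012 to 32503071 (rn4). Mmp14 had log2 signals of 3.45, 3.26, 3.94 and 2.98 in the wild-type vehicle ovaries, 3.88, 4.18, 3.58 and 3.53 in the wild-type olaparib ovaries, 3.38, 3.85, 3.20 and 3.52 in the BRCA1+/- vehicle ovaries and 3.16, 3.56, 3.27 and 3.14 in the BRCA1+/- olaparib ovaries. With olaparib, 3 of 4 BRCA1+/- ovaries lay below all wild-type ovaries, and replicate 2, at 3.56, overlapped them. The genotype difference with olaparib was -0.51 (SE 0.22, 95% interval -0.99 to -0.03), unadjusted limma p 0.0388, adjusted p 1, exact permutation p 0.0571. It was -0.67 on slide 1 and -0.35 on slide 2, and the gene's other probe gave -0.47. That probe, at 32503002 to 32503061, overlaps the first in most of its bases, so it is close to a repeat measurement. The olaparib difference in wild-type rats was 0.39 (SE 0.22), and the interaction -0.59 (SE 0.32, adjusted p 0.968).

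All 6 tested membrane-type genes had a positive olaparib difference in wild-type rats, with a median of 0.33 beside -0.07 for all features. Of the 6, 0 had an unadjusted p under 0.05, beside 4.33% of all features. Over the 28 alternative settings 5 or 6 of them were higher, with medians of 0.11 to 0.58. Mmp24, named here as the largest of these differences and outside the rule, had log2 signals of -1.62, -1.94, -2.09 and -1.74 in wild-type vehicle and -0.60, -0.67, 0.35 and -2.65 in wild-type olaparib ovaries. Replicates 1, 2 and 3 with olaparib lay above all vehicle ovaries and replicate 4 below them. The same held for Adamts15 and the mean centred level of the surface epithelium markers, though not for each of those markers. The Mmp24 difference was 0.96 (SE 0.52, adjusted limma p 0.964), or 0.19 without the 6 arrays. The part of the surface epithelium and of adipocytes in the Mmp24 values was not tested. In BRCA1+/- rats 2 of the 6 were higher and 4 lower with olaparib, with a median of -0.15 beside 0.02. Over the 28 settings 2 to 4 of the 6 were higher there, and the median turned sign, from -0.30 to 0.16.

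Mmp16, also outside the rule, was the only member whose BRCA1+/- groups did not overlap between olaparib and vehicle (1 of 36, 2.78%, beside 1.11% of all features). Its log2 signals were -2.67, -2.79, -3.12 and -2.77 with vehicle and -2.41, -2.59, -2.42 and -2.44 with olaparib. The olaparib values were the higher ones, with little spread. The difference was 0.37 (SE 0.24, adjusted limma p 1), or 0.23 without the 6 arrays. The SE is pooled over all groups, among them wild-type olaparib with an SD of 0.56. The gene's other probes were above background on 16, 2 and 0 arrays, and 2 of them gave -0.16 and -0.04. At least 1 of these 2 values thus comes from a dim probe. No member had groups that did not overlap between genotypes under olaparib, beside 0.583% of all features.

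Mmp12, the macrophage elastase, is also a gene of the cluster. Its probe lies at 4259057 to 4259413 on chromosome 8 (rn4). The Mmp12 log2 signals were -1.60, 0.69, 0.82 and 0.53 in the wild-type vehicle ovaries, -3.55, -0.69, -3.46 and -1.22 in the wild-type olaparib ovaries, -3.57, 0.95, -0.95 and -1.43 in the BRCA1+/- vehicle ovaries and -2.19, -1.85, -0.52 and 0.97 in the BRCA1+/- olaparib ovaries. Wild-type vehicle replicates 2, 3 and 4 lay above all 4 wild-type olaparib ovaries, while replicate 1 lay among them. The olaparib difference in wild-type rats was -2.34 (SE 0.98, 95% interval -4.43 to -0.25), unadjusted limma p 0.0306, adjusted p 0.964, exact permutation p 0.0857. It was -1.67 on slide 1, -3.01 on slide 2, and -1.06 without the 6 arrays of high ciliated markers, which include both of the lowest olaparib replicates. The difference was 0.35 (SE 0.98) in BRCA1+/- rats, and -0.71 without the 6 arrays. The summed log2 level of the 5 macrophage markers was 3.75 to 5.03 with vehicle and 2.78 to 4.58 with olaparib in wild-type rats, and its part in the Mmp12 values was not tested.

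Mmp19, which is expressed in follicles and the corpus luteum around ovulation, spread over 4.62 log2 units. Mmp19 log2 signals were -1.34, -0.45, -0.40 and 0.41 in the wild-type vehicle ovaries, -1.91, -0.53, -4.21 and -0.83 in the wild-type olaparib ovaries, -2.41, 0.14, -0.84 and -1.03 in the BRCA1+/- vehicle ovaries and -1.31, -1.45, 0.00 and 0.00 in the BRCA1+/- olaparib ovaries. Wild-type olaparib replicate 3 was the lowest array of all, and every group overlapped the others. Its olaparib difference in wild-type rats was -1.42 (SE 0.73, adjusted limma p 0.964), with -0.32 on slide 1, -2.52 on slide 2, and -0.23 without the 6 arrays. Mmp12, Mmp19 and Mmp23 all had a negative olaparib difference in wild-type rats, with a median of -1.42, and in BRCA1+/- rats all 3 had a positive one, with a median of 0.34. Over the 28 alternative settings the wild-type median was -1.87 to -0.26, and that in BRCA1+/- rats turned sign, from -0.25 to 0.73, with 1 to 3 of the 3 higher. The interaction had a median of 1.76 over the 3 genes, and 0 of them had an unadjusted p under 0.05 for it, beside 3.44% of all features.

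The tissue inhibitors bind active metalloproteases, and all 4 were above background on every array. Timp1, which is induced in the ovary around ovulation, has its probe on the X chromosome at 12542700 to 12543703 (rn4). Timp1 had log2 signals of 6.03, 6.90, 5.31 and 7.13 in the wild-type vehicle ovaries, 5.87, 6.37, 4.75 and 6.03 in the wild-type olaparib ovaries, 5.75, 5.75, 5.92 and 6.08 in the BRCA1+/- vehicle ovaries and 6.27, 5.82, 6.01 and 7.25 in the BRCA1+/- olaparib ovaries. Wild-type vehicle replicates 2 and 4 and BRCA1+/- olaparib replicate 4 stood highest, as for Mmp2, and the same 3 arrays had the highest centred level of neutrophil markers (2.43, 2.23 and 2.86, from 2 of 4 listed genes) and the lowest of theca markers (-1.87, -1.41 and -2.10). Among the theca markers, Cyp17a1 was at -1.57, -1.74 and -1.93 on those arrays and at 3.7 or above on all others. Lhcgr and Insl3 were below their medians there, while Star (6.61, 6.24 and 6.11) lay around its median of 6.2. By summed level (6.65, 6.37 and 6.22) the theca markers were lower still in BRCA1+/- vehicle replicate 3. Cyp19a1, a granulosa marker, was also lowest on the 3 arrays of high Timp1, at -4.75, -5.30 and -4.11, against -3.42 or above elsewhere. The mean centred level of all 6 granulosa markers was -0.29, -0.74 and -0.32 there, with wild-type olaparib replicate 1 at -0.38. The arrays were not sorted by stage of the ovarian cycle. The part of neutrophils, of theca and granulosa cells and of that stage in the Timp1 values was not tested. The olaparib difference was -0.59 (SE 0.43) in wild-type and 0.46 (SE 0.43) in BRCA1+/- rats, and the interaction was 1.05 (SE 0.60, interval -0.24 to 2.34, adjusted limma p 0.968). Without the 6 arrays of high ciliated markers these 3 values were -0.14, 0.30 and 0.43.

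Timp2, which binds Mmp14 at the cell surface, had log2 signals of 5.83, 6.26, 6.43 and 6.25 in the wild-type vehicle ovaries, 6.34, 6.54, 6.19 and 5.51 in the wild-type olaparib ovaries, 5.92, 6.43, 6.74 and 6.43 in the BRCA1+/- vehicle ovaries and 5.97, 6.42, 6.53 and 6.64 in the BRCA1+/- olaparib ovaries. The groups overlapped within a range of 1.24 log2 units. The olaparib difference was -0.05 (interval -0.57 to 0.48) in wild-type and 0.01 (interval -0.52 to 0.53) in BRCA1+/- rats. The values were -0.17 and 0.02 without the 6 arrays. Both intervals include 0, and quantile normalization turned both signs.

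Timp3, the inhibitor that is bound to the matrix and also blocks ADAMTS aggrecanases, had log2 signals of 2.68, 2.63, 3.37 and 2.80 in the wild-type vehicle ovaries, 2.62, 2.75, 3.16 and 3.15 in the wild-type olaparib ovaries, 3.12, 3.29, 2.28 and 3.12 in the BRCA1+/- vehicle ovaries and 2.56, 2.98, 3.03 and 2.66 in the BRCA1+/- olaparib ovaries. The groups overlapped, and BRCA1+/- vehicle replicate 3 was the lowest array. The olaparib difference was 0.05 (interval -0.47 to 0.57, and -0.01 with each array centred on its median) in wild-type and -0.15 (interval -0.67 to 0.38) in BRCA1+/- rats. Without the 6 arrays these were 0.08 and -0.44.

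Timp4 differed from the other inhibitors in its spread, 4.13 log2 units over the arrays. Log2 signals of Timp4 were -2.56, -1.98, -2.48 and -2.09 in the wild-type vehicle ovaries, 0.73, -2.45, 1.00 and -2.51 in the wild-type olaparib ovaries, -2.59, -2.42, 1.54 and -0.87 in the BRCA1+/- vehicle ovaries and -2.39, -2.07, 0.01 and -0.11 in the BRCA1+/- olaparib ovaries. The 6 arrays with high ciliated markers held the 6 highest values, from -0.87 to 1.54, and the other 10 arrays were at -1.98 or lower. The olaparib difference in wild-type rats was 1.47 (SE 0.98, adjusted limma p 0.964), and -0.20 without those 6 arrays. The genotype difference with vehicle was 1.19 (SE 0.98, adjusted p 0.875), and -0.23 without them. The markers of secretory oviduct epithelium had a mean centred level above 0 on the same 6 arrays, which were not the 6 highest by summed level. The part of ciliated or of secretory epithelium in the Timp4 values was not tested.

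**Figure D4:**
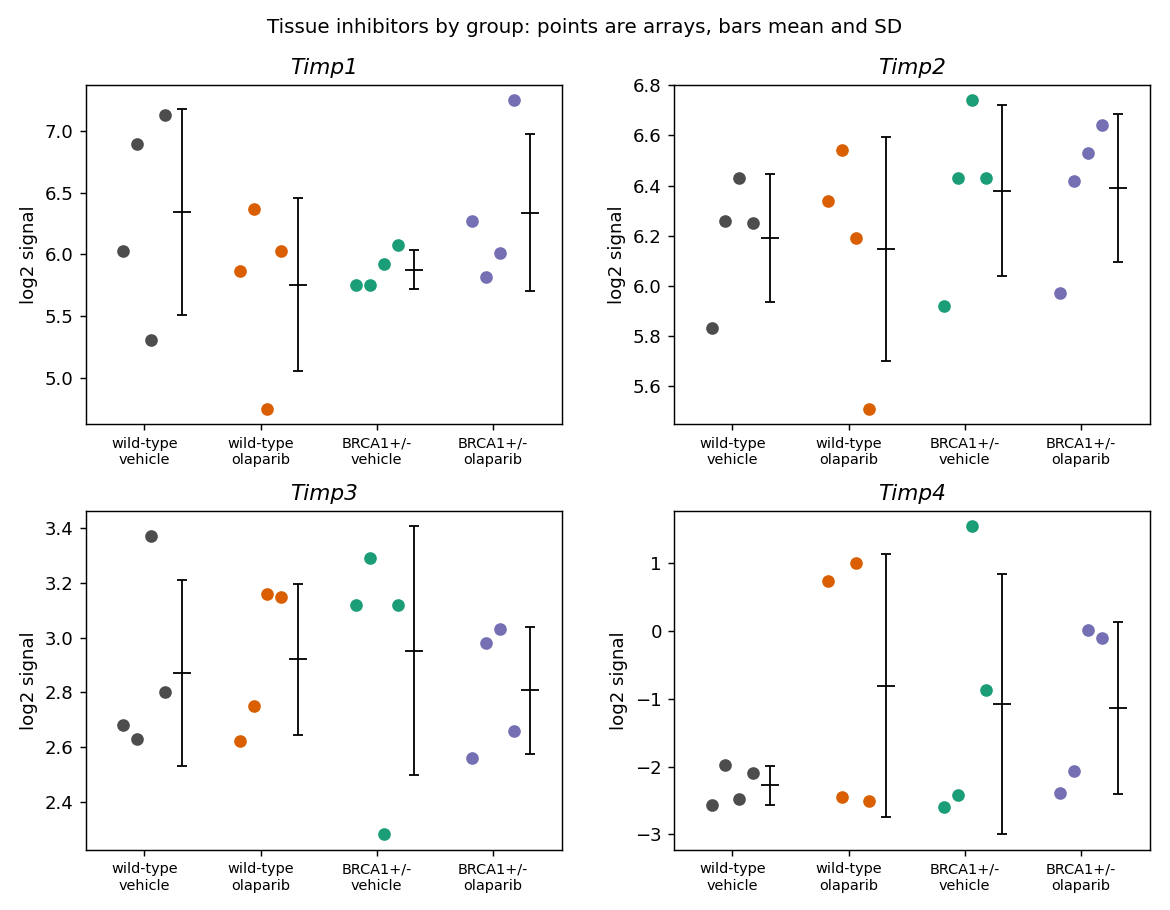
Log2 signal (vertical axis, a scale of its own in each panel) of the 4 tissue inhibitors by group, with points for arrays and bars for the mean and SD (n = 4). Timp2 and Timp3 overlap in all groups over 1.24 and 1.09 log2 units, while Timp4 splits into arrays at -0.87 and above and arrays at -1.98 and below.

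**Figure D5:**
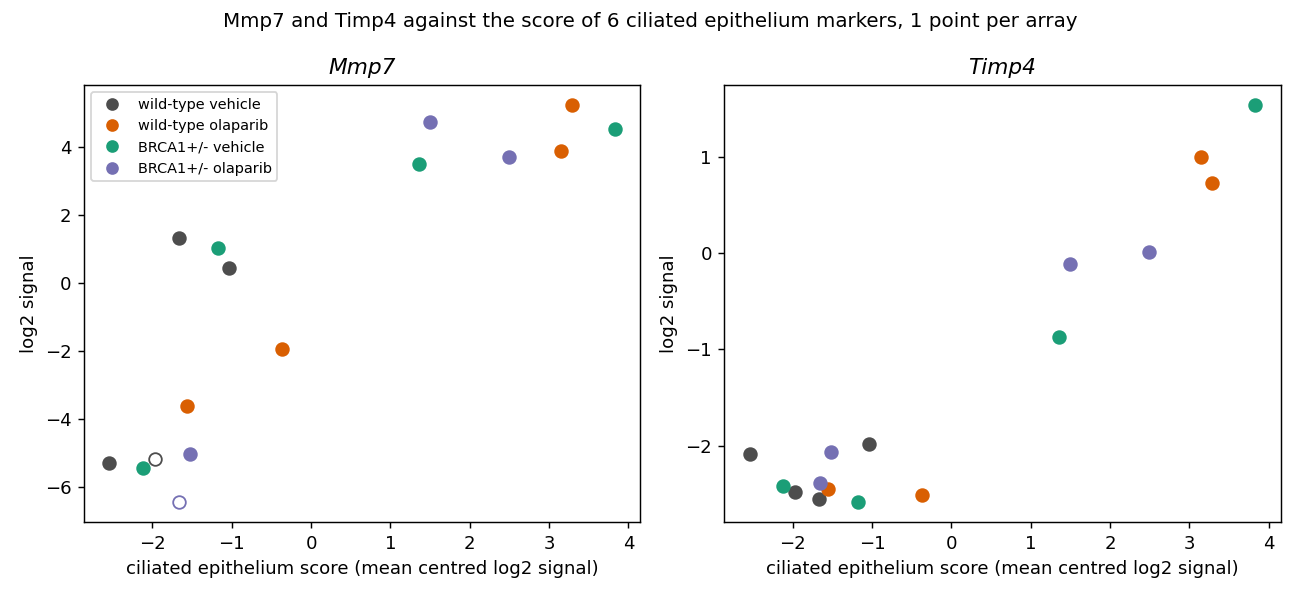
Log2 signal of Mmp7 and Timp4 (vertical axes) against the mean centred log2 signal of 6 ciliated epithelium markers, 1 point per array, open where the probe was not well above background. The 6 arrays with a score above 0 hold the highest values of both genes; the plot is a description, and the arrays were told apart by the score after the data were seen.

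Over all roles, the 36 tested members were evenly divided with olaparib in wild-type rats, with 17 higher and 19 lower, while 39.2% of all features were higher. The median of the members was -0.03, beside -0.07 for all features, and turned sign over the alternative settings, from -0.18 to 0.05. In BRCA1+/- rats 13 were higher and 23 lower (median -0.20, beside 0.02), where 53.2% of all features were higher. With vehicle, 23 were higher and 13 lower in BRCA1+/- than in wild-type ovaries (median 0.19, beside -0.06), where 42.2% of all features were higher. With olaparib 20 were higher and 16 lower, where 53.2% of all features were higher, and the median of 0.05, beside 0.02, turned sign over the settings, from -0.17 to 0.13. The interaction had 16 positive and 20 negative values, where 57.8% of all features were positive, with a median of -0.21 beside 0.08. Without the arrays of high ciliated markers the interaction median of the members was -0.01. There the median genotype difference with vehicle was 0.05, and the median olaparib difference in BRCA1+/- rats was -0.12.

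The genes around the family were taken from a list of matrix substrates, activators, inhibitors and related proteases, of which 43 were tested. None passed the adjusted test in any comparison. The one gene with an unadjusted p under 0.05 was Thbs1 (thrombospondin 1, a matrix protein that binds MMPs and takes part in their uptake by cells), with an olaparib difference over both genotypes of -0.48 (SE 0.20, unadjusted limma p 0.0333, adjusted p 1). In that comparison 1.32% of all features had an unadjusted p under 0.05. With olaparib in wild-type rats 12 of the 18 matrix substrates and 12 of the 15 activators and inhibitors had a negative difference, with medians of -0.21 and -0.20 beside -0.07 for all features. Of all features 39.2% were higher in that comparison, so most features were lower there too. In BRCA1+/- rats the substrates were divided, with 9 higher and 9 lower and a median of 0.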

How the data were processed

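Cy3-labelled total RNA of 16 ovaries was hybridised to single-colour Agilent rat arrays. Signals were made with Agilent Feature Extraction (10.7 per the submitters' processing notes, 10.7.1.1 per the file headers). The processed signal is an intensity that the authors' software had background-subtracted, per the file headers, without scaling between arrays. The deposited series table holds log2 values, which matched the log2 processed signal minus a constant per array. The members and lists were chosen with earlier results of these data known.

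Spots of a probe were averaged, log2 values were set against the array's 75th percentile, and the probe with the highest mean stood for a gene. Differences were fitted in R 4.3.3 with limma 3.58.1, with 1 mean per group for all 4 groups and 16 arrays (12 residual degrees of freedom), with Benjamini-Hochberg adjustment over all 20227 features. Permutation tests were exact and two-sided (70 arrangements). The number of arrays limits the precision. On simulated data for olaparib in wild-type rats (20227 features), 192 of 200 genes changed by 4 log2 units were recovered, with 11 false calls. The simulated noise was independent, with 1 SD per gene in all groups, whereas Mmp13 had group SDs of 0.64 to 3.81. The simulation is a check of the fitting code and does not measure the power for the differences described here. Probe positions were not checked against a genome, and their place in exons or introns was not determined.

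Named with values were the 4 inhibitors and 7 ovarian proteases known from textbooks, up to 2 members in each direction with the smallest unadjusted p under 0.05 in a comparison, and the 4 members of largest range among those above background on all arrays. From the pathway list up to 2 genes with the smallest p were allowed. Mmp3, Mmp7, Mmp10, Mmp16 and Mmp24 were named in addition after their values were seen. Alternatives were the background correction, the scaling, the filter, the probe rule, the slide and the replicate number as blocks, limma's settings, and leaving out each array.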

Additional observations from a re-analysis of the deposited data

Results flagged for a closer look

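In 4 of the 80 sets of 4 arrays examined (20 genes in 4 groups), 1 array stood apart from its group by Dixon's criterion, and chance gives about 1 in 20. Mmp12 was -1.60 in wild-type vehicle replicate 1, with the other 3 arrays at 0.53 to 0.82. Mmp16 was -2.59 in BRCA1+/- olaparib replicate 2, against -2.44 to -2.41. Mmp2 was 2.44 in BRCA1+/- vehicle replicate 1, against 2.82 to 2.85. Timp3 was 2.28 in BRCA1+/- vehicle replicate 3, against 3.12 to 3.29.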

How the results depend on the processing

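No member passed the adjusted test under any alternative run, with a lowest adjusted p of 0.349 (limma), and leaving out each array in turn gave 0 members called in each comparison. With the replicate number as a block, 0 members were called and Adamts3 in wild-type rats stayed at -2.04 (adjusted p 0.612). For the interaction the block gave 4 members (Adamts3, Adamts9, Mmp12 and Timp1) an unadjusted p under 0.05, beside 6.95% of all features, against 0 without it, and a lowest adjusted p of 0.711. Samples with the same number, which share a slide, correlated at -0.442 to 0.714 over 24 pairs (median 0.207), after group means were removed. Pairs of different numbers had a median of 0.034 on the same slide (-0.460 to 0.554) and of -0.125 on different slides. Samples of the same number were thus more alike in the median, with ranges that overlapped widely. The main fit did not pair them, and the block is given as an alternative. The all-feature median of the interaction was 0.08 and 0.24 with the array median as centre. Of 1115 values of named differences, 41 changed sign. Without the 6 arrays of high ciliated markers, which was chosen after seeing the data and leaves 2 arrays in 3 of the groups, the values in wild-type rats with olaparib were 0.71 for Adamts14, -0.59 for Mmp7, -0.20 for Timp4, 0.74 for Adamts1, 0.24 for Adamts9 and 0.10 for Mmp2. There Mmp12 with olaparib in BRCA1+/- rats was -0.71, the genotype difference with vehicle was -0.01 for Mmp7 and -0.23 for Timp4, that of Mmp13 with olaparib was -0.92, and the Adamts3 interaction was -0.17. Quantile normalization gave 0.09 and -0.01 for Timp2 in wild-type and BRCA1+/- rats, and the array median gave -0.01 for Timp3 in wild-type rats. Within slide 1, olaparib gave -0.71 for Mmp12 in BRCA1+/- rats and -0.07 for Mmp7, 0.39 for Timp2 and 0.14 for Mmp2 in wild-type rats, and the genotype gave -3.07 for Mmp7 and -0.23 for Timp4 with vehicle. Within slide 2, olaparib in BRCA1+/- rats gave 0.55 for Adamts3, 0.00 for Timp2, 0.15 for Timp3 and 0.04 for Adamts14, and the genotype with vehicle gave -0.33 for Adamts14. Other probes gave 0.17 for Adamts3 and -0.16 and -0.04 for Mmp16 in BRCA1+/- rats. Leaving out 1 array gave -0.18 to 0.17 for Timp2, -0.03 to 0.22 for Timp3 and -0.64 to 0.10 for Mmp2 in wild-type rats, and -0.42 to 1.09 for Mmp12 and -0.14 to 0.15 for Timp2 in BRCA1+/- rats. The cause of these changes was not tested. With 4 arrays a group and signals near background for Adamts3, Mmp9 and Mmp10, differences of the size seen could not be told from the spread between animals.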
